A study of Mus musculus with 48 samples.

Results

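The postsynaptic scaffold genes described here are the 10 members of the Dlg, Shank and Homer families, Dlg1, Dlg2, Dlg3, Dlg4, Shank1, Shank2, Shank3, Homer1, Homer2 and Homer3. Each was found by its Ensembl identifier in GENCODE, and all 10 are among the 48526 genes of the deposited table. The rule was a list of names. The samples came from the cortex of wild-type male C57BL/6JRj mice without any treatment, 4 at 3 weeks (3w), 4 at 5 months (5m) and 4 at 18 months (18m). For the middle age, 6 months stands in the sample labels, and 5 in the protocol text and the paper. Each of the 12 mice gave 4 libraries, from total homogenate (TH) and from synaptosomes (SYN), each as RNA before a sucrose cushion (input) and as RNA pelleted with ribosomes through the cushion (SC).

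Behind the postsynaptic membrane of excitatory synapses lies the postsynaptic density, a layered protein meshwork. Dlg proteins (Dlg4 encodes PSD-95, Dlg2 PSD-93, Dlg3 SAP102 and Dlg1 SAP97) are membrane-near scaffolds that bind NMDA receptors through PDZ domains. Through the SAPAP linker proteins they connect to the Shank proteins, which form a deeper layer, and Homer proteins join Shank to group I metabotropic glutamate receptors and to the IP3 receptor. The mRNA of Shank1 is a textbook example of an RNA carried into dendrites.

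On GRCm38 the genes lie apart from each other, except that Shank1, Shank2, Dlg2 and Homer2 share chromosome 7. Shank1 (ENSMUSG00000038738) spans chr7:44310253-44360572 and Shank3 (ENSMUSG00000022623) spans chr15:89499623-89560261, both on the plus strand. Their transcripts were the most GC-rich of the members, with 62.5% for Shank1 and 62.1% for Shank3, followed by Homer3 (59.2%), Shank2 (56.0%), Dlg4 (54.7%), Dlg3 (50.5%), Homer2 (48.6%), Dlg1 (44.6%), Dlg2 (43.4%) and Homer1 (42.0%). GC content is given because the comparisons below move with it.

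One sequence feature separated Shank1 and Shank3 from the other members. Coding sequences were searched on the sense strand for 4 runs of at least 3 G, each run separated from the next by 1 to 7 bases, the pattern of a potential G-quadruplex. In the longest coding sequence of each gene, Shank1 held 3 such stretches and Shank3 held 2, while none was found in the other 8 members. Over 21584 genes, 3.61% held at least 1. Among the 2529 genes with a coding GC content of at least 60%, the share was 12.5%, and Homer3, the other member of that group, had none. These shares are not matched for length, and the coding sequences have 6501 bases in Shank1, 5415 in Shank3, 5523 in Shank2 and 1077 in Homer3. Per kilobase, Shank1 held 0.461 sites and Shank3 0.369, more than 97.8% and 97.4% of genes. The sites are shown because no other member held one. Runs of at least 3 G are in capitals, all sites are exonic and coding, and a match to the pattern is a description of the letters only.
Shank1 site 1, exon 12, chr7:44327055-44327086, plus strand: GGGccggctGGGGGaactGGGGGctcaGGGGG
Shank1 site 2, exon 24, chr7:44352681-44352706, plus strand: GGGctGGGcccGGGGGcgcccccGGG
Shank1 site 3, exon 24, chr7:44354001-44354028, plus strand: GGGGGcgtggctGGGGGcGGGGccGGGG
Shank3 site 1, exon 1, chr15:89499755-89499787, plus strand: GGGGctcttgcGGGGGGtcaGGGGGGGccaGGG
Shank3 site 2, exon 22, chr15:89557887-89557908, plus strand: GGGtggaGGGGctGGGGGcGGG

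The 250 bases before the transcription start are shown for 3 members, Shank3 and Homer2, the most GC-rich stretches among the members, and Homer1, the one with the most half-sites. They come from RefSeq (GRCm38.p6), where 8 of the 10 members had an entry. Capitals mark GC boxes (GGGCGG on either strand) in Shank3 and Homer2, and the cyclic AMP response half-site TGACG (either strand) in Homer1. Homer1 and Homer2 have 2 starts each in that table, and the one with the more GC-rich stretch is shown. Shank3 held 4 GC boxes, Homer2 held 8 of which some overlap, and Homer1 held 3 half-sites and no GC box. The start of Homer2 that is not shown held 0 GC boxes, and that of Homer1 held 0 half-sites. Among members not shown, Homer3 held 4 GC boxes, Dlg2 held 0 at each of its 3 starts and Dlg4 held 1 at 1 of 3 starts. Dlg1 and Dlg3 held 1 GC box at some starts and 0 at others. Dlg3 and Dlg4 each held 1 half-site at 1 start. Whether GC boxes go with the comparison of SYN with TH was not tested. Over 32851 promoters of this length, 32.7% held GGGCGG and 17.8% held TGACG. The stretch of Homer1 has a GC content of 62.4%, against 82.4% for Shank3 and 83.2% for Homer2. No data here measured binding at these sites.
Shank3, chr15:89499358-89499607, plus strand: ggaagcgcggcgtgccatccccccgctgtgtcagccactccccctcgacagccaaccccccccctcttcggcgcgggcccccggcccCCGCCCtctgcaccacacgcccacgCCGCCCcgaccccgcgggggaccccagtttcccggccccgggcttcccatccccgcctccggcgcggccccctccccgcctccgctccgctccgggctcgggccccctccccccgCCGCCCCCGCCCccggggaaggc
Homer2, chr7:81706926-81707175, minus strand: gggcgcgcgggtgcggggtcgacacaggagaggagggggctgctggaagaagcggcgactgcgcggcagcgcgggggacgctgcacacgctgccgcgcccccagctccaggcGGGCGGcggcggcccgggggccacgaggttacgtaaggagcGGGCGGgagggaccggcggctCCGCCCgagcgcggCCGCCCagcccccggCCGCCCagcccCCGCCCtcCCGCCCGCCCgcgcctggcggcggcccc
Homer1, chr13:93303507-93303756, plus strand: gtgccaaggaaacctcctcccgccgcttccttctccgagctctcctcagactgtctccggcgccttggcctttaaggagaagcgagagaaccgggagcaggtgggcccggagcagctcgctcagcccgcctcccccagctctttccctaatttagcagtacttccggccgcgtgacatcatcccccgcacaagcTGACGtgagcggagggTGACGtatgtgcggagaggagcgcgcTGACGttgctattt

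Libraries held between 1780267 and 18590040 counts, with medians of 10815833.5 in input_TH, 8643431 in SC_TH, 3756951 in input_SYN and 7298371 in SC_SYN, so input_SYN was the shallowest fraction. Levels are given as CPM, counts relative to the library size after TMM scaling. Nuclear RNAs were far lower in SYN: the sum of 6 nuclear transcripts had a median of 18680 CPM in input_TH and 2764 CPM in input_SYN at 5m. At 5m, all 6 astrocyte markers (summed 3414 to 3958 CPM in input_TH and 12370 to 13330 CPM in input_SYN), all 6 microglial markers and 4 of 6 excitatory neuron markers (summed 3303 to 3890 CPM and 11500 to 12350 CPM) were higher in input_SYN than in input_TH, while all 5 endothelial markers were lower. No excitatory neuron or astrocyte marker was at 0 in any library. The part of these cell types in the results was not tested, and in bulk RNA fewer cells and less RNA per cell cannot be told apart.

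Shank1 was the most abundant member in every fraction and at each age, by CPM and by CPM per kilobase of the union of exons. Per kilobase of exon, its mean at 5m was 118.3 ± 7.15 CPM (SD, n = 4) in input_TH, 108.5 ± 6.07 in SC_TH, 494.1 ± 27.7 in input_SYN and 425.4 ± 65.3 in SC_SYN. In input_TH at 5m it was followed by Dlg4 (42.5 CPM per kb), Shank3 (36.8), Shank2 (26.3), Dlg3 (21.0), Dlg2 (19.1), Homer1 (18.7), Dlg1 (10.3), Homer2 (7.27) and Homer3 (2.81). The ranges of Dlg3, Dlg2 and Homer1 overlapped there, so their order is not resolved by 4 mice. In SC_SYN at 5m the order was Shank1, Shank3 (112.9), Dlg4 (68.7), Shank2 (55.7), Dlg2 (27.6), Dlg3 (23.1), Homer2 (13.3), Homer1 (11.04), Dlg1 (8.92) and Homer3 (4.47), and the ranges of Dlg2 and Dlg3, of Homer2 and Homer1, of Homer1 and Dlg1, and of Homer2 and Dlg1 overlapped. Shank3 thus stood above Dlg4 in SC_SYN and below it in input_TH at 5m.

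**Figure D1:**
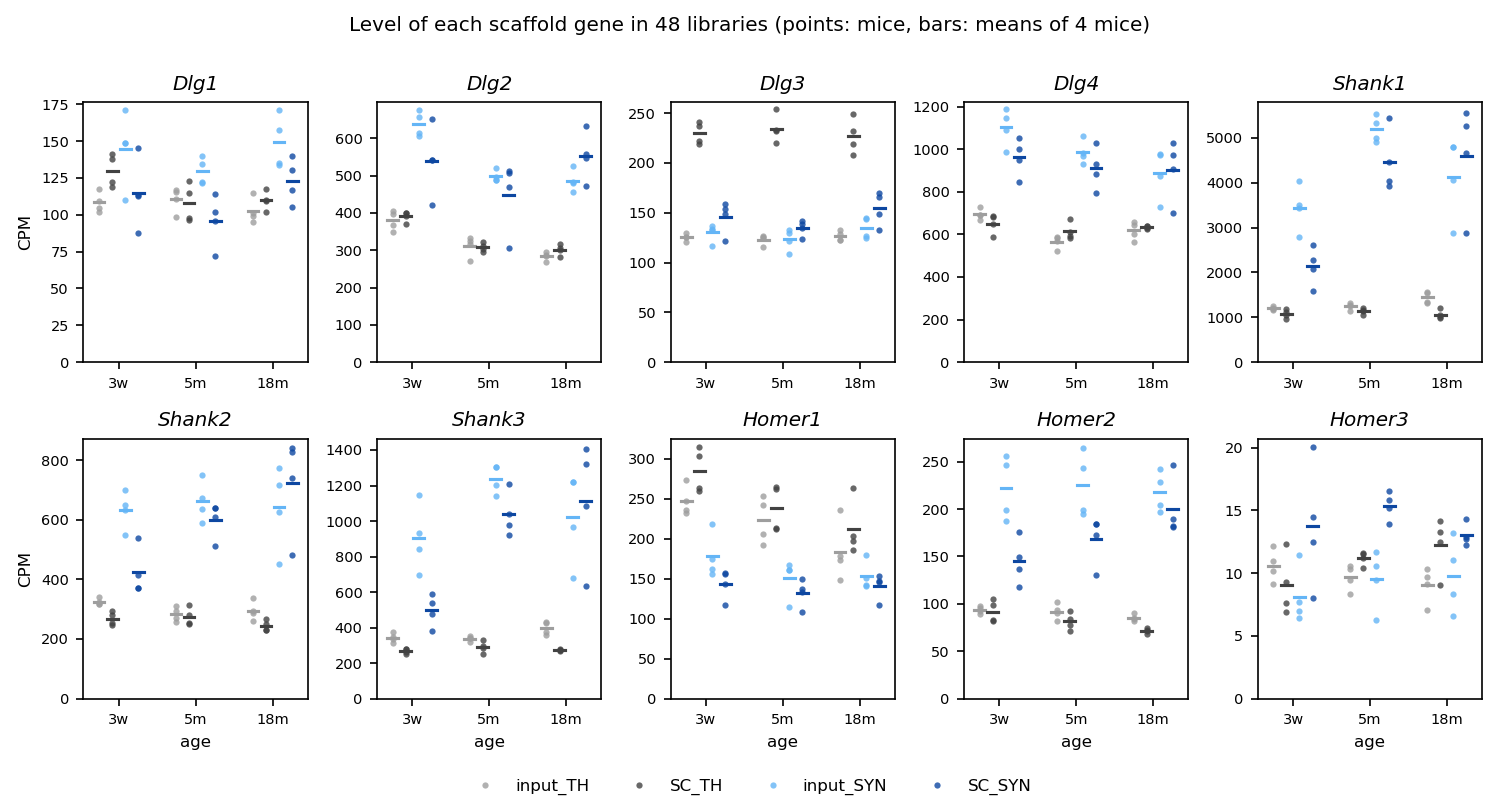
CPM (y axis, from 0, different in each panel) of the 10 scaffold genes in the 48 libraries by age, with each point 1 mouse, each bar the mean of 4 mice and colours for the 4 fractions. Shank1, Shank2, Shank3 and Homer2 lie higher in both SYN fractions than in the TH fractions, Homer1 lies lower, and Dlg3 is highest in SC_TH.

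The first comparison asks which scaffold mRNAs are enriched in synaptosomes before the cushion. Shank1 in input_TH was 1165, 1262, 1186 and 1216 CPM at 3w, 1136, 1309, 1272 and 1257 at 5m, and 1326, 1539, 1345 and 1571 at 18m. In input_SYN, Shank1 was 4033, 3506, 2793 and 3439 CPM at 3w, 5342, 5532, 4916 and 4992 at 5m, and 4060, 4794, 2872 and 4798 at 18m. The lowest synaptosomal library was above the highest homogenate library, with mouse 189 at 3w and mouse 197 at 18m the lowest of their groups. Shank1 was higher in input_SYN by 1.52 ± 0.117 (log2 fold change ± SE) at 3w, 2.07 ± 0.118 at 5m and 1.52 ± 0.116 at 18m, or 2.86, 4.20 and 2.87-fold (edgeR adjusted p = 3.41e-12, 5.08e-15 and 2.96e-12).

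Shank3, the scaffold gene of Phelan-McDermid syndrome, went the same way. In input_TH it was between 312.5 and 432.1 CPM over all 12 mice, and in input_SYN it was 1145, 930, 693.9 and 845 CPM at 3w, 1205, 1303, 1142 and 1304 at 5m, and 965.6, 1218, 680.8 and 1219 at 18m. Mouse 197 was again the lowest at 18m, still above each homogenate value. The difference was 1.41, 1.88 and 1.37 at the 3 ages (SE 0.136, 0.137 and 0.135, edgeR adjusted p at most 5.69e-10). Shank2 was higher by 0.97, 1.23 and 1.13 (edgeR adjusted p at most 2.78e-08).

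Homer2, a long-form Homer of the postsynaptic density, was also higher in input_SYN, by 1.25, 1.30 and 1.36 (edgeR adjusted p at most 1.65e-11), at 187.8 to 264.5 CPM against 81.63 to 102.1 CPM. Homer1 went the other way. In input_TH it was 232.4, 235.2, 247.3 and 272.6 CPM at 3w, 192, 242.1, 206 and 253.5 at 5m, and 148.3, 235.7, 172.8 and 178.2 at 18m. In input_SYN it was 162.1, 174.6, 217.6 and 156.3 CPM at 3w, 161.1, 160.8, 114.1 and 166.8 at 5m, and 140.1, 180, 150.2 and 141.5 at 18m. Groups did not overlap at 3w and 5m but did at 18m, and Homer1 was lower in SYN than in TH within each of the 12 mice. The difference was -0.47 ± 0.132 at 3w (edgeR adjusted p = 0.00229), -0.56 ± 0.132 at 5m (0.000488) and -0.26 ± 0.130 at 18m (0.0762). With the mouse as a block, the value at 18m was -0.25 (edgeR adjusted p = 0.021), and DESeq2 gave -0.36 (0.0187). With GC content and length trends removed, the values of Homer1 turned to 0.05, 0.08 and 0.01 with no call, and genes of low GC content were lower in input_SYN as a class. The Homer1 counts combine the long forms with the short activity-induced form Homer1a, which the gene-level table does not separate.

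Among the Dlg genes, Dlg2 was higher in input_SYN by 0.75, 0.69 and 0.78 and Dlg4 by 0.67, 0.81 and 0.53 (edgeR adjusted p at most 2.06e-06 for both). Dlg4, the gene of PSD-95, was 1187, 1090, 988.1 and 1145 CPM in input_SYN and 668.7, 730.6, 691.1 and 692.3 CPM in input_TH at 3w, without overlap. Dlg1 was higher by 0.42, 0.24 and 0.54 (edgeR adjusted p = 0.000645, 0.0412 and 2.57e-05). The 5m call of Dlg1 was lost without mouse 191 or 192 (0.14 to 0.22, adjusted p from 0.117 to 0.292) and by DESeq2 (0.13, 0.271). Dlg3 (0.05, 0.01 and 0.09) and Homer3 (-0.30, 0.00 and 0.18) did not pass the test, though Homer3 was called lower at 3w with GC content and length trends removed (-0.49, edgeR adjusted p = 0.0188). In all, 7 members were higher at each age, and 1 was lower at 3w and 5m and 0 at 18m. Of all genes tested, 71% were called at 3w, 72.7% at 5m and 72.3% at 18m, so a call in this comparison is common and the size of a difference says more than the count. The median of the 10 members was 0.71, 0.75 and 0.66, beside -0.18, -0.18 and -0.12 over all genes. Without TMM, using library size alone, the median of all genes moved to -0.75, -0.83 and -0.70 and Dlg1 turned to -0.15, -0.42 and -0.03 and Dlg4 to -0.04 at 18m. The Dlg4 call at 3w (0.10) and the Dlg2 call at 5m (0.039) were lost, and Dlg3 (-0.51, -0.64 and -0.48) and Homer3 (-0.88, -0.66 and -0.40) were called lower. Still, 8, 9 and 9 of the 10 members lay above that median, as many as with TMM. With at least 10 counts in every library 7, 6 and 7 did, and Dlg1 was at -0.075 at 5m.

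**Figure D2:**
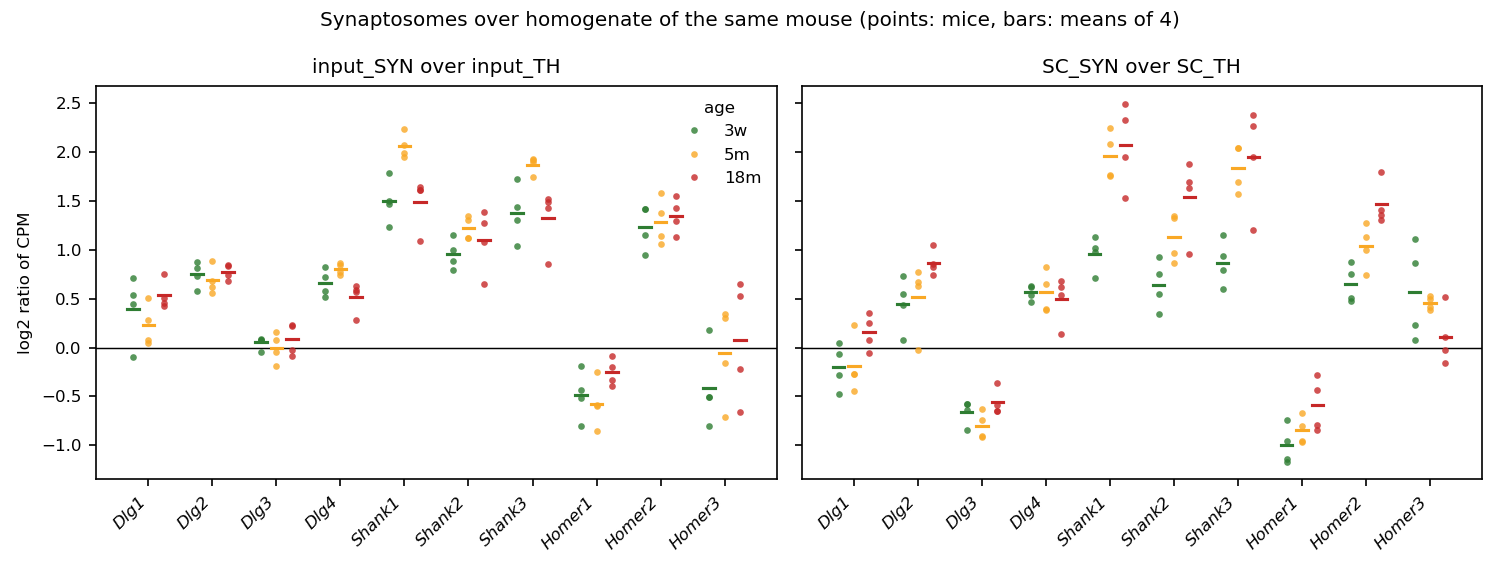
Log2 ratio of CPM in SYN over TH of the same mouse (y axis) for each gene (x axis), for input on the left and SC on the right, with points for mice, bars for means of 4 mice and colours for age. Shank1 lies between 1.09 and 2.23 in input and between 0.72 and 2.49 in SC, Homer1 lies below 0 in all 12 mice in both, and Dlg3 lies below 0 in all 12 in SC only. Values of Homer1 in input turn to about 0 once GC content and length trends are removed.

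In the ribosome-bound RNA the same question compares SC_SYN with SC_TH. Shank1 in SC_TH stayed between 966.8 and 1211 CPM over the 12 mice. In SC_SYN it was 2069, 1588, 2277 and 2607 CPM at 3w, 3935, 4464, 5445 and 4048 at 5m, and 4671, 5266, 5566 and 2876 at 18m. Mouse 198 was the lowest at 18m, and no group in SC_SYN reached down to SC_TH. The differences were 1.03 ± 0.158 at 3w, 1.99 ± 0.162 at 5m and 2.15 ± 0.163 at 18m, or 2.05, 3.98 and 4.43-fold (edgeR adjusted p = 3.15e-06, 9.15e-11 and 5.6e-11).

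Shank3 in SC_TH was between 252.6 and 329.7 CPM. In SC_SYN it was 537.3, 381.9, 479 and 588.3 CPM at 3w, 923.4, 1041, 1208 and 977.5 at 5m, and 1085, 1321, 1406 and 634.6 at 18m, above SC_TH in each group. The difference was 0.94, 1.86 and 2.05 (edgeR adjusted p at most 2.13e-05). Shank2 was higher by 0.71, 1.15 and 1.60 and Homer2 by 0.71, 1.07 and 1.51 (edgeR adjusted p at most 0.000123). With GC content and length trends removed, Shank1 was at 0.69, 1.41 and 1.81 and Shank3 at 0.59, 1.29 and 1.72. Shank2 was then at 0.51, 0.83 and 1.37 and Homer2 at 0.76, 1.07 and 1.38, and all stayed called. These 4 genes gave larger values at 18m than at 3w. The difference between 3w and 18m was not tested as such. Tests of the steps from 3w to 5m and from 5m to 18m follow below.

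Dlg3 and Homer1 were lower in SC_SYN. Dlg3, which encodes SAP102, the Dlg protein known for its abundance in young synapses, was 219.1, 221.8, 237.1 and 240.9 CPM in SC_TH at 3w, 219.9, 253.8, 231.8 and 232.8 at 5m, and 248.9, 232.2, 208.2 and 218.7 at 18m. In SC_SYN, Dlg3 was 122.1, 148.7, 159.1 and 154.1 CPM at 3w, 141.9, 134.4, 123.9 and 139.2 at 5m, and 166, 148.3, 133.1 and 169.8 at 18m. The groups were apart at each age, with differences of -0.60, -0.77 and -0.52 (edgeR adjusted p at most 3.58e-05). Homer1 differed by -0.95, -0.82 and -0.56 (edgeR adjusted p at most 0.000469). With GC content and length trends removed, Homer1 was at -0.45, -0.35 and -0.48, still called, and Dlg3 at -0.69, -0.87 and -0.60.

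Dlg2 was higher in SC_SYN by 0.51, 0.56 and 0.91 and Dlg4 by 0.62, 0.59 and 0.54 (edgeR adjusted p at most 0.00105). The Dlg2 groups overlapped at 5m, at 306.3 to 513.5 CPM in SC_SYN and 295.8 to 322.7 CPM in SC_TH. With GC content and length trends removed, Dlg2 was at 0.92, 0.91 and 0.91 and Dlg4 at 0.47, 0.33 and 0.32, all still called. Homer3, the least abundant member, was higher at 3w by 0.61 (edgeR adjusted p = 0.0141) and at 5m by 0.48 (0.0271), and was at 0.13 at 18m. The first of these calls was lost without mouse 187 or 190 (0.37 to 0.51, adjusted p from 0.0707 to 0.161), the other without mouse 191, 192 or 193 (0.44 to 0.50, 0.0575 to 0.0946), while scaling by library size alone gave 0.068 at 3w and -0.11 at 5m. Both calls were lost when GC content and length trends were removed (0.21, edgeR adjusted p = 0.308, and 0.021, 0.913). Homer3 counts are uncertain, because 25.41% of its exonic bases also lie in exons of Ddx49 on the opposite strand and reads were counted without regard to strand. Dlg1 differed by -0.13, -0.15 and 0.20, without passing the test. In all, 7, 7 and 6 members were higher and 2 lower at each age, beside 63.5%, 67.8% and 62.1% of all genes called. Scaled by library size alone, the median of all genes was -0.59, -0.68 and -0.60 in place of -0.04, -0.09 and -0.07, Dlg2 turned to -0.04 at 3w and -0.02 at 5m, Dlg4 was at 0.072, 0.0039 and 0.011 and Shank2 and Homer2 at 0.17 and 0.16 at 3w without a call, and Dlg1 turned to -0.33 at 18m and was called (edgeR adjusted p = 0.0299). Of the members, 7, 7 and 8 lay above the median, as with TMM.

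Within the families, the balance between members shifted as well. Homer1 made up 66.2 ± 1.73% of the Homer CPM per kb in input_TH at 3w, and 64.8 ± 2.38% and 61.6 ± 4.75% at 5m and 18m (SD, n = 4 each). In input_SYN its share was 42.6 ± 2.15%, 37.9 ± 3.35% and 38.8 ± 3.99%. Homer2 had 23.9, 25.3 and 27.5% in input_TH and 50.5, 53.9 and 52.6% in input_SYN. The lowest Homer2 share of any input_SYN library was 46.1% and the highest of any input_TH library was 30.0%, so Homer2 was the leading Homer transcript per length before the cushion in SYN and Homer1 in TH. These shares do not depend on how libraries were scaled, while they do depend on exon length, on GC content and on which isoforms are present. Shank1 held 63.0 to 71.6% of the Shank signal in all 12 groups, and Shank3 held 18.3 to 20.8%, whereas Shank2 had 13.2 to 16.6% in the TH groups and 8.91 to 13.3% in the SYN groups. Dlg3 held 31.6, 34.8 and 33.6% of the Dlg signal in SC_TH and 14.1 to 22.8% in the other 9 groups.

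**Figure D3:**
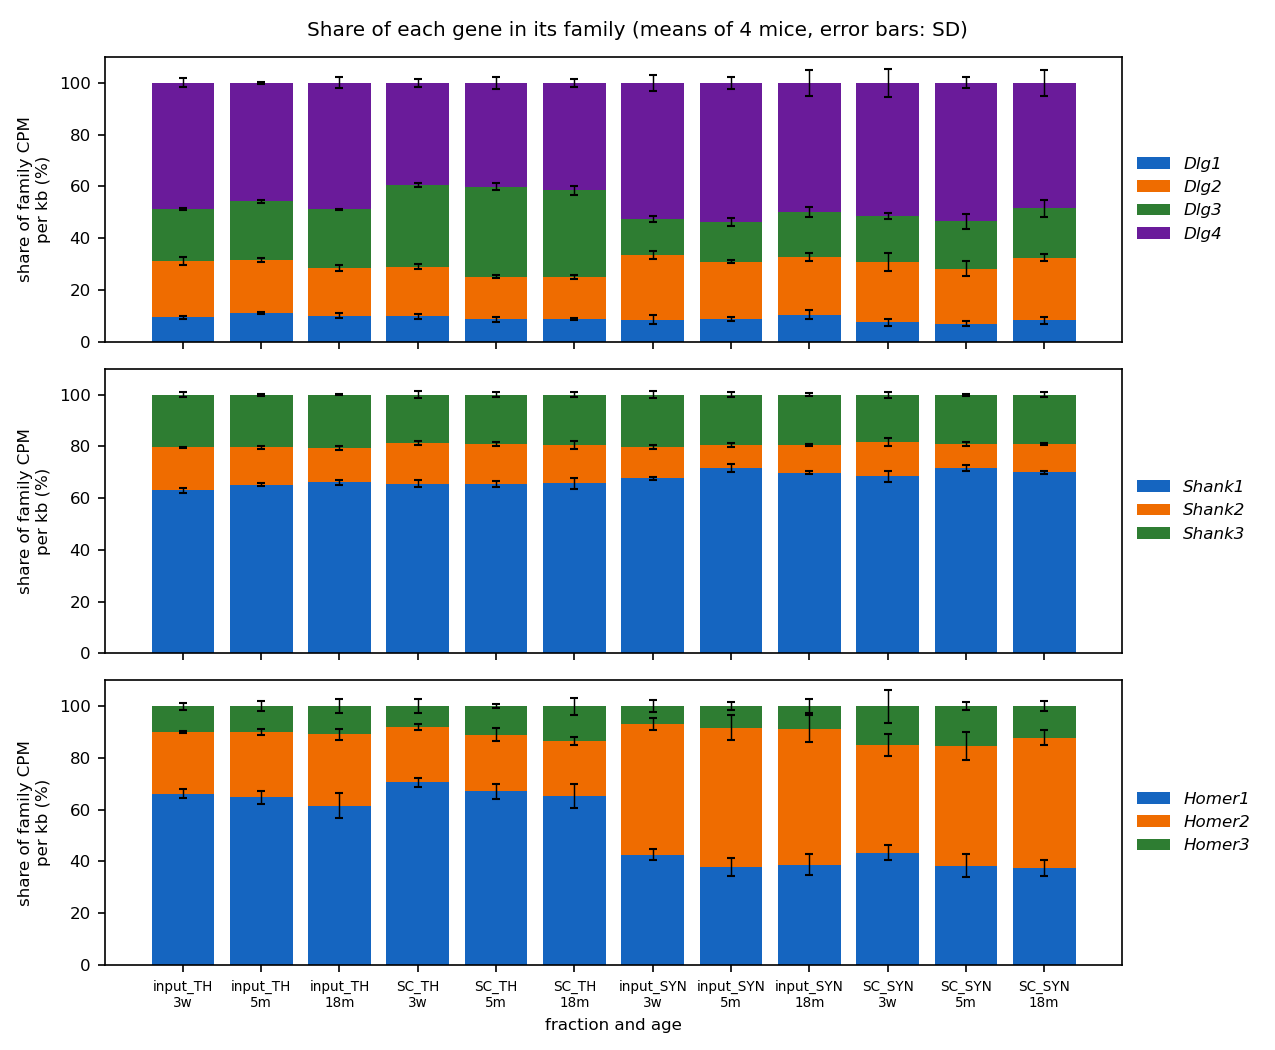
Share of each gene in the CPM per kb of its family (y axis, %) in the 12 groups of fraction and age (x axis), as stacked means of 4 mice with the SD of each gene at the top of its segment. Homer2 takes a larger part of the Homer family in SYN than in TH, Dlg3 is largest in SC_TH, and the Shank family keeps its order.

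Changes with age were tested within each fraction. Shank1 and Shank3 rose in SC_SYN between 3w and 5m, from 1588 to 2607 CPM up to 3935 to 5445 CPM for Shank1 and from 381.9 to 588.3 CPM up to 923.4 to 1208 CPM for Shank3, without overlap. Shank1 rose by 1.02 ± 0.1995 (2.03-fold, edgeR adjusted p = 0.00754) and Shank3 by 1.01 ± 0.208 (2.02-fold, 0.0093). Both calls held in each of the 16 alternatives, leaving out any 1 of the 8 mice among them, with values from 0.60 to 1.14 for Shank1 and from 0.61 to 1.11 for Shank3. The lowest values came from removing GC content and length trends (0.60 and 0.61, edgeR adjusted p = 0.0208 and 0.0151), and GC-rich genes were higher as a class in this comparison, with a median of 0.24 over the 2837 genes of at least 55.8% GC and -0.19 over the 2837 genes of at most 44.9%. Shank2 was at 0.46 (edgeR adjusted p = 0.115), and the remaining 7 members were between -0.31 and 0.17 with no call. These 2 of 10 compare with 8.05% of all genes. All 6 oligodendrocyte markers fell (summed median 9476 CPM at 3w and 3537 CPM at 5m) and 4 of 6 microglial markers rose (448.8 and 798.6 CPM) in the same comparison. Their part in the change of the Shank genes was not tested.

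Between 5m and 18m no member changed in SC_SYN by edgeR, with 1 of 10 at an unadjusted p under 0.05 and 0 called by DESeq2. Shank1 differed by 0.07 and Shank3 by 0.13, and their spread was wide at 18m, with mouse 198 at the low values given above. Only 0.014% of all genes were called there, while 2474 of 14240 had an unadjusted p under 0.05.

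In input_SYN between 3w and 5m, 3.22% of all genes were called. Shank1 rose by 0.56 ± 0.131 (edgeR adjusted p = 0.0249), with no overlap between 2793 to 4033 CPM and 4916 to 5532 CPM, and Dlg2 fell by 0.39 ± 0.0903 on the log2 scale (0.0232), from 606.1 to 676.8 CPM down to 488.3 to 520.7 CPM. Shank3 was at 0.42 (0.157). Both calls were lost without any 1 of several mice, while the values changed little. That of Shank1 was lost without mouse 188, 189, 190, 191 or 192 (0.48 to 0.58, adjusted p from 0.0563 to 0.0803) and that of Dlg2 without mouse 189, 190, 191, 193 or 194 (-0.39 to -0.36, 0.0656 to 0.0795). From 5m to 18m, 0 members were called in input_SYN by edgeR or DESeq2. Of the members, 1 had an unadjusted p under 0.05, as did 1214 of all 12975 genes, and 0.139% of all genes were called. Shank1 was at 4916 to 5532 CPM at 5m and 2872 to 4798 CPM at 18m, without overlap. DESeq2 gave -0.34 for Shank1 (adjusted p = 0.407).

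In homogenate, Dlg2 and Dlg4 changed between 3w and 5m. In input_TH, Dlg2 was 405.1, 350.2, 369.1 and 396.7 CPM at 3w and 270.1, 324.3, 317.1 and 331.7 CPM at 5m. Dlg4 was 668.7 to 730.6 CPM at 3w and 519.7, 586.4, 567.3 and 581.5 CPM at 5m. Neither pair of groups overlapped, with falls of 0.30 ± 0.0648 for Dlg2 and 0.31 ± 0.0563 for Dlg4 on the log2 scale (edgeR adjusted p = 0.00591 and 0.00161), beside 11.8% of all genes called. With all 48 libraries in one fit both calls were lost (-0.29 and -0.30, edgeR adjusted p = 0.118 and 0.0506). In SC_TH, Dlg2 fell by 0.34 ± 0.0620 on the log2 scale (0.00176), from 370.6 to 401.3 CPM down to 295.8 to 322.7 CPM, without overlap. Dlg1 fell by 0.26 in SC_TH (0.043), a call lost without mouse 187, 188, 190, 191 or 194 (-0.29 to -0.22, adjusted p from 0.0649 to 0.128) and under several other settings, with 17.9% of all genes called. Dlg2 was thus lower at 5m than at 3w in input_TH, SC_TH and input_SYN, and in SC_SYN it was at -0.31 without passing the test (0.257). Removal of GC content and length trends added calls for Dlg4 at 5m against 3w in SC_TH (-0.21, edgeR adjusted p = 0.0199) and input_SYN (-0.26, 0.0466).

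Shank1 and Shank3 were higher in input_TH at 18m than at 5m, by 0.22 ± 0.0615 and 0.24 ± 0.0667 (edgeR adjusted p = 0.0252 for both), with 15.5% of all genes called. Their values were 1326 to 1571 CPM against 1136 to 1309 CPM and 358.4 to 432.1 CPM against 318.8 to 350.1 CPM, without overlap. This result moves with GC content: the median was 0.17 over the 3594 genes of at least 55.4% GC and -0.22 over the 3595 genes of at most 43.9%, and with GC and length trends removed Shank1 was at -0.03 and Shank3 at -0.01. The call was also lost for Shank1 without mouse 194, 196 or 198 (0.18 to 0.23, adjusted p from 0.0541 to 0.0906) and for Shank3 without mouse 193, 194, 196 or 198 (0.20 to 0.25, 0.0508 to 0.0895). Homer1 was at -0.28 in input_TH (0.0995), and was called without mouse 191 or 196 (-0.42 to -0.35, adjusted p from 0.0157 to 0.0307). Dlg2 was called without mouse 191 (-0.20, 0.022) and Dlg4 without mouse 195 (0.18, 0.0303). In SC_TH no member changed between 5m and 18m by edgeR or DESeq2, beside 2.17% of all genes called. An unadjusted p under 0.05 was reached by 0 members and by 2878 of all 16427 genes.

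**Figure D4:**
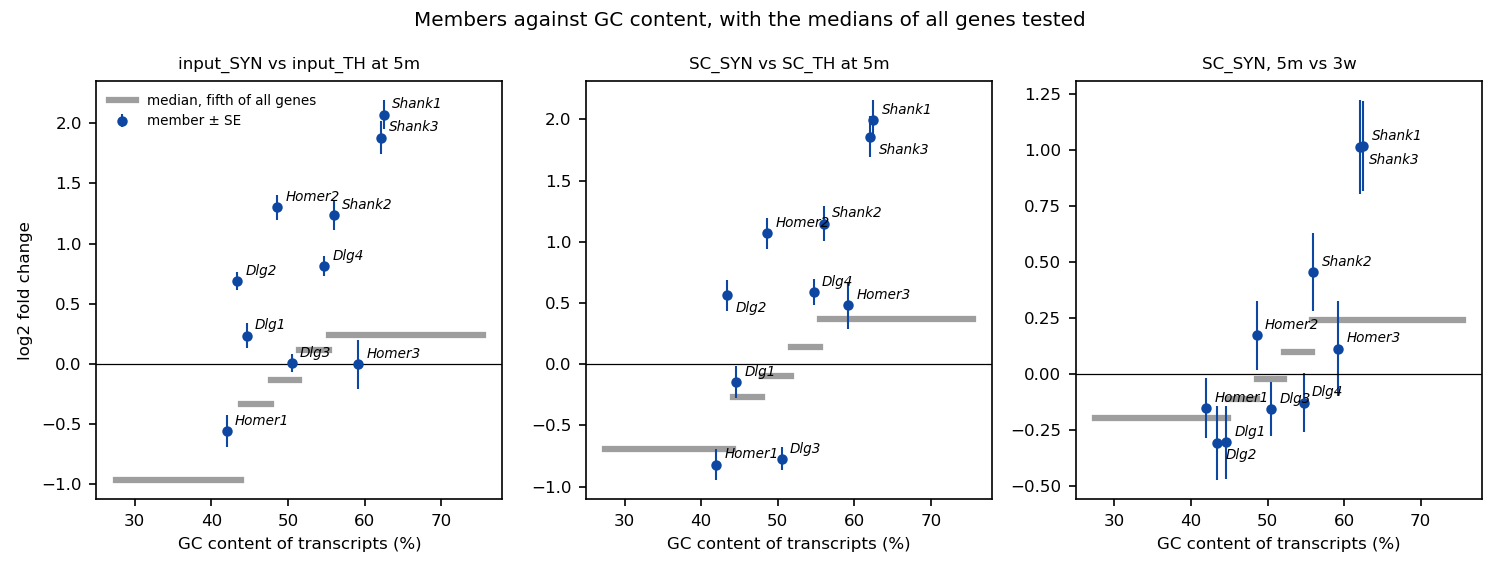
Log2 fold change ± SE of the 10 members (blue) against the GC content of their transcripts in 3 comparisons, with grey bars for the median of all genes in 5 classes of GC content of equal size. Shank1 and Shank3, the most GC-rich members, lie above the grey bar of their class in all 3, and Homer1, the least GC-rich, lies below 0 in all 3. Against the bar of its own class, Homer1 lies above it in input_SYN against input_TH (-0.56 and -0.96). It lies below it in SC_SYN against SC_TH (-0.82 and -0.69).

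Whether an age change differs between compartments was tested as an interaction. Between 3w and 5m in SC, the change in SYN exceeded that in TH by 0.96 ± 0.221 for Shank1 (edgeR adjusted p = 0.14) and by 0.91 ± 0.231 for Shank3 (0.161), so neither passed the threshold, and 0.0301% of all genes did. Of the 10 members, 3 had an unadjusted p under 0.05, as did 1324 of all 16630 genes. DESeq2 called both (0.99, adjusted p = 0.0157, and 0.94, 0.0362). Between 5m and 18m in SC, 0 members and 0% of all genes were called by edgeR, and DESeq2 called 0 members. There, 2 members and 2855 of all 16630 genes had an unadjusted p under 0.05. For input, 0 members were called between 3w and 5m (0 by DESeq2), beside 0.0224% of all genes. An unadjusted p under 0.05 was reached by 2 members and by 1437 of all 17860 genes. Between 5m and 18m in input, 4 members and 3168 of all 17860 genes had an unadjusted p under 0.05, and 2.42% of all genes were called. The difference was -0.55 for Shank1 (edgeR adjusted p = 0.0639) and -0.51 for Shank3 (0.137). With the mouse as a block these were -0.57 (edgeR adjusted p = 0.0145) and -0.55 (0.0308), and DESeq2 called Shank1 (0.0143). With GC content and length trends removed they were -0.12 and -0.10, without a call.

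Translational efficiency (TE) within a compartment compares SC with input. In TH, Dlg3 was the member that stood out. It was 120.5, 126, 125.8 and 129.4 CPM in input_TH at 3w, 115.8, 125.2, 126.4 and 124.3 at 5m and 123.1, 128.6, 123 and 132.7 at 18m, against the SC_TH values of 208.2 to 253.8 CPM listed above. No group overlapped, and TE was 0.89 ± 0.0617, 0.93 ± 0.0609 and 0.85 ± 0.0606 at 3w, 5m and 18m, or 1.85, 1.91 and 1.81-fold (edgeR adjusted p at most 3.75e-12). All 12 mice lay between 0.72 and 1.02. All 13 alternatives kept this call at each age, with values between 0.76 and 0.97.

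Shank3 went the other way in TH, at -0.34, -0.21 and -0.52 (edgeR adjusted p = 0.000488, 0.0148 and 9.05e-07), below 0 in all 12 mice. Its call at 5m was lost without mouse 192 (-0.12, adjusted p = 0.184). Shank1 was at -0.43 at 18m (1.83e-05) and Shank2 at -0.26 at 3w (0.012) and at 18m (0.00814), the 3w call being lost without mouse 188 (-0.21, 0.0722). Homer2 was at -0.23 at 18m (0.0104), lost without mouse 197 (-0.21, 0.0551), and at -0.17 at 5m (0.0554), called with the mouse as a block (-0.17, 0.0382). Homer1 was above 0 in all 12 mice, at 0.22, 0.09 and 0.22, without passing the test (0.129, 0.529 and 0.105). With the mouse as a block it was called at 3w (0.22, edgeR adjusted p = 0.00409) and at 18m (0.23, 0.00193). Dlg1 was higher at 3w by 0.27 (0.00695), lost without mouse 188 (0.20, 0.0869), and Homer3 at 18m by 0.45 (0.0077). With GC content and length trends removed, Dlg2 at 5m went from -0.01 to 0.23 and was called (edgeR adjusted p = 0.000539), as were Dlg2 at 18m (0.23, 0.000457), Dlg1 at 18m (0.16, 0.029) and Shank1 at 5m (-0.25, 0.00158). Homer1 was then called at all 3 ages (0.32, 0.45 and 0.43, edgeR adjusted p = 0.0456, 0.00539 and 0.00597). The share of all genes called in TH was 52.8% at 3w, 62.1% at 5m and 64% at 18m, against 4, 2 and 6 of the 10 members.

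In SYN the Shank genes and Homer2 were lower in SC than in input at 3w. Shank1 was at -0.70 ± 0.176, Shank2 at -0.60 ± 0.158, Shank3 at -0.88 ± 0.193 and Homer2 at -0.64 ± 0.151 (edgeR adjusted p = 0.00663, 0.01, 0.00263 and 0.00427), and none of these 4 genes had overlapping groups. For Shank1 this is the contrast of 1588 to 2607 CPM in SC_SYN with 2793 to 4033 CPM in input_SYN. The Shank2 call was lost without mouse 187 or 188 (-0.56 to -0.55, adjusted p from 0.0536 to 0.0542). Homer1 was at -0.34 (0.0956) and Homer3 at 0.69 (0.056), and with the mouse as a block both were called (-0.33, edgeR adjusted p = 0.0495, and 0.68, 0.0436). Homer3 was also called without mouse 188 (0.80, 0.0462) and with GC content and length trends removed (0.64, 0.022). Of all genes, 18.5% were called at 3w, 20% at 5m and 12.6% at 18m.

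At 5m, Dlg1 was at -0.46 (0.0339) and Homer2 at -0.46 (0.032) in SC_SYN against input_SYN by edgeR. The Dlg1 call was lost without mouse 191, 192 or 193 (-0.48 to -0.32, adjusted p from 0.0816 to 0.25) and that of Homer2 without mouse 191 or 192 (-0.42 to -0.32, 0.11 to 0.238). Homer3 was at 0.65 (0.0528), and was called with the mouse as a block (0.67, 0.0311) and by DESeq2 (0.65, 0.0452). Shank3 was called at 5m once GC content and length trends were removed (-0.32, edgeR adjusted p = 0.0479). At 18m, 0 members were called by edgeR or DESeq2 and 0 had an unadjusted p under 0.05, while 3631 of all 14301 genes did. There, mice 197 and 198 stood apart in opposite directions: the log2 ratio of Shank3 was 1.05 in the one and -0.94 in the other, and that of Shank1 was 0.95 and -0.74. The low library was input_SYN for mouse 197 and SC_SYN for mouse 198.

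**Figure D5:**
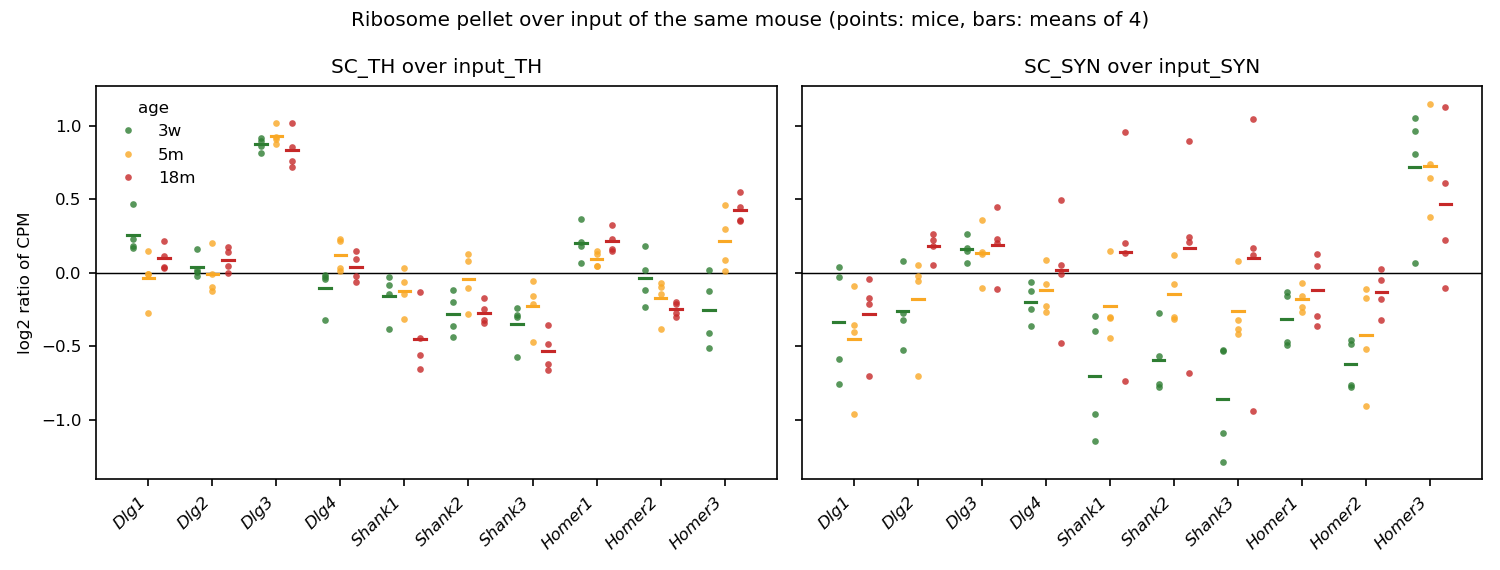
Log2 ratio of CPM in SC over input of the same mouse (y axis) for each gene (x axis), for TH on the left and SYN on the right, with points for mice, bars for means of 4 mice and colours for age. Dlg3 in TH lies between 0.72 and 1.02 in all 12 mice, and the Shank genes in SYN lie below 0 in all 4 mice at 3w and spread on both sides of 0 at 18m.

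The change of TE with age was tested in the same models. In SYN, 0 members and 0% of all genes were called between 3w and 5m, and 0 members and 0% between 5m and 18m, by edgeR. Unadjusted p under 0.05 was reached by 1 member (Shank3, 0.59 ± 0.271) in the earlier interval and 0 in the later, and DESeq2 called 0 members in both. Of all 14301 genes, 473 reached it in the earlier interval and 393 in the later. In TH, 0 members were called in either interval (2 at an unadjusted p under 0.05 in each), beside 2.33% and 1.78% of all genes. The unadjusted p was under 0.05 for 4027 and 3137 of all 18416 genes. Shank1 and Shank3 were both at -0.31 between 5m and 18m (edgeR adjusted p = 0.127 and 0.124), and DESeq2 called both (-0.33 each, 0.0451 and 0.0391). Without mouse 195, Shank1 was called by edgeR (-0.42, 0.0254).

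The difference between the TE of SYN and the TE of TH was tested at each age over all 48 libraries. Per the study's methods, TH lysates were sheared through a needle and cleared by centrifugation before the cushion. That step is given for TH only, so preparation and compartment cannot be told apart in this difference. Dlg3 had a lower TE in SYN than in TH at each age, by -0.70 ± 0.117, -0.80 ± 0.116 and -0.65 ± 0.115 (edgeR adjusted p = 3.16e-05, 1.32e-06 and 4.06e-05), and kept this call in all 12 alternatives. At 3w, Dlg1 (-0.59, 0.0147) and Homer2 (-0.58, 0.0127) were also lower and Homer3 was higher (0.86, 0.039). The Dlg1 call was lost without mouse 187 or 189 (-0.53 to -0.50, adjusted p from 0.0822 to 0.101) and that of Homer3 without any 1 of mice 187, 188, 189 and 190 (0.80 to 0.93, 0.0657 to 0.117). Homer1 was at -0.52 (0.0518), and with the mouse as a block was called (-0.52, 0.00735). Shank1 (-0.60, edgeR adjusted p = 0.00149), Shank2 (-0.39, 0.0394) and Shank3 (-0.60, 0.000865) were called lower at 3w too once GC content and length trends were removed.

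At 18m, Shank1 and Shank3 had a higher TE in SYN than in TH, by 0.60 ± 0.202 (edgeR adjusted p = 0.0239) and 0.66 ± 0.218 (0.0225). Both rest on few mice: without mouse 197 Shank1 was at 0.36 (0.256), and without mouse 195 or 197 Shank3 was at 0.39 to 0.70 (0.0613 to 0.245). Shank2 was at 0.45 (0.0739), called by DESeq2 (0.52, 0.0281) and without mouse 198 (0.71, 0.00508). The share of all genes called in this comparison was 17.7% at 3w, 23% at 5m and 24.7% at 18m, against 4, 1 and 3 members. At 5m, Dlg1 was at -0.40 (0.0956), called without mouse 194 (-0.60, 0.0294). Removal of GC content and length trends gave calls for Dlg1 at 5m (-0.45, edgeR adjusted p = 0.00416) and 18m (-0.40, 0.00815) and for Dlg4 at 5m (-0.27, 0.0291).

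A list of 35 partner genes, which encode SAPAP linkers, receptors, enzymes and other adaptors of the postsynaptic density, was read beside the members. In input_SYN against input_TH, 21, 23 and 21 of the 35 were higher and 8, 8 and 5 lower at 3w, 5m and 18m, with medians of 0.35, 0.59 and 0.58. Of all genes, 71, 72.7 and 72.3% were called there. All 9 receptor genes were higher at each age, before and after the cushion. Grin1, the obligatory NMDA receptor subunit, was higher by 2.12 ± 0.0838 in input at 5m (edgeR adjusted p = 2.18e-18) and by 1.96 ± 0.0885 in SC (1.23e-14). Dlgap3, a SAPAP linker between Dlg and Shank proteins, was higher by 2.22 ± 0.119 in input at 5m (1.22e-15) and by 1.68 ± 0.138 in SC (1.15e-10), values near those of Shank1. Baiap2, the gene of the Shank-binding protein IRSp53, was lower in input_SYN at each age (-0.76, -0.74 and -0.60, adjusted p at most 0.00105). In SC_SYN against SC_TH, 16, 17 and 20 partners were higher and 10, 9 and 5 lower, beside 63.5, 67.8 and 62.1% of all genes called.

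Between 3w and 5m in SC_SYN, 5 of the 35 partners were higher and 4 lower, where 573 of all 14240 genes were higher and 573 lower (8.05% called). Begain (0.68 ± 0.196, edgeR adjusted p = 0.0458) and Sipa1l1 (0.67 ± 0.185, 0.04), a Rap GTPase-activating protein of the spine, had the largest increases, and Lin7a (-0.75 ± 0.212, 0.0431) and Grin2b (-0.50 ± 0.112, 0.0159), the NMDA receptor subunit of young synapses, the largest decreases. The increases of Shank1 and Shank3 were larger than those of any partner called. For TE in TH, 14, 18 and 14 of the partners were higher and 5, 3 and 3 lower, beside 52.8, 62.1 and 64% of all genes called. For the TE of SYN minus that of TH, 0 partners were higher at any age and 14, 11 and 8 were lower. Of all 18112 genes, 1043, 1553 and 1836 were higher and 2164, 2613 and 2642 lower (17.7, 23 and 24.7% called). Partners with large differences were Nlgn3 (-0.80 at 5m and -0.95 at 18m) and Grin2b (-0.96 at 18m).

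The members resembled each other to different degrees over the 12 groups of fraction and age. Pearson's r of mean log2 CPM was 0.997 between Shank1 and Shank3, 0.982 between Shank1 and Shank2 and 0.956 between Shank1 and Homer2. It was 0.945 between Dlg2 and Dlg4, -0.863 between Shank1 and Homer1 and -0.52 between Shank1 and Dlg3. The 12 groups share mice and fall mainly into SYN and TH, so these are descriptions. Among 10788 genes, those most like Shank1 were Tmcc2 (0.995) and Mllt6 (0.991), and those most like Shank3 were Dact3 (0.995) and Brsk1 (0.992). Closest to Shank2 were Ppp1r16b (0.99) and Mllt6 (0.987), to Homer2 Pou6f1 and Dync1h1 (0.988 each), to Dlg4 Ndst1 (0.986) and Slc39a1 (0.983), and to Dlg3 Eno2 and Rad23b (0.985 each). Homer1 was most like Jazf1 and Nyap2 (0.976 each), Dlg2 most like Dtx4 (0.979) and Taf13 (0.973), and Homer3 most like Acad11 (0.951) and Cyb5a (0.931).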

How the data were processed

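Per the labels and the study's methods, the authors depleted rRNA, ligated UMI adaptors, aligned with TopHat2 2.1 to GRCm38 and used featureCounts, ignoring strand. What they deposited are raw counts per gene in 48 libraries. Removal of duplicates by UMI and the sequencing run of each library are not given in the sources used here. GENCODE vM21 (GRCm38) gave symbols, lengths and GC content for 48144 of 48526 identifiers.

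Tests used edgeR 4.0.16 in R 4.3.3 (TMM, filterByExpr, glmQLFit, glmQLFTest), with Benjamini-Hochberg adjustment over all genes tested and a threshold of 0.05. All 10 members passed the filter. Age was fitted within a fraction (12 libraries), compartment and cushion over 24 libraries, and the difference of TE between compartments over 48, a comparison added after values were seen. The main fits over 24 and 48 libraries had no block, so their SEs and p-values treat libraries of one mouse as independent. CPM per kb used the union of exons.

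Alternatives were DESeq2 1.42.0, scaling by library size, dropping the filter or asking for 10 counts in each library, fitting fewer groups or all libraries jointly, leaving out mitochondrially encoded genes, removing loess trends (span 0.5) on GC content and length, the mouse as a block, and each mouse left out. The code was tested on simulated data. Intervals and p-values cover the spread between these mice only.

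Same-numbered libraries come from one mouse and are thus paired. Their deviations from group means correlated with medians of -0.058 to 0.233 in 6 pairings of fractions. Named genes were the 10 members, up to 2 partners per direction and comparison with the largest fold change, and the 2 genes of highest r among those with a mean of at least 5 CPM. The genes most like Dlg1 are not reported here. Members and lists were chosen with earlier results of these data known. Promoters are from RefSeq (GRCm38.p6).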

Additional observations from a re-analysis of the deposited data

Results flagged for a closer look

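Of 120 groups of 4 mice (10 genes in 12 groups), 2 held a mouse far from the other 3 by Dixon's gap ratio, where chance gives about 1 in 20 groups. Homer1 in input_SYN at 5m was 114.1 CPM in mouse 193 and 160.8 to 166.8 CPM in the others, a gap of 0.886 of the range. Homer2 in SC_SYN at 18m was 246 CPM in mouse 195 and 180.6 to 189.9 CPM in the others, a gap of 0.858.

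The ratio of SC to input differed between the compartments, which were also prepared differently, by an interaction test in edgeR for 8 results. TE in SYN minus TE in TH was -0.70 for Dlg3 at 3w, -0.80 at 5m and -0.65 at 18m. It was -0.59 for Dlg1, -0.58 for Homer2 and 0.86 for Homer3 at 3w, and 0.60 for Shank1 and 0.66 for Shank3 at 18m. Of these, the values of Dlg3 passed the threshold in each alternative, while those of Dlg1, Homer2, Homer3, Shank1 and Shank3 lost it in at least 1.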

How the results depend on the processing

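Over all members, 10 age changes were called, and 6 with all 48 libraries in one fit (6 to 12 with 1 mouse left out, the lowest without mouse 194). The comparison of SYN with TH gave 23 calls in input (22 to 23) and 26 in SC (25 to 26), and SC against input gave 18 (15 to 18, and 24 with the mouse as a block). The 0 calls for age by compartment became 3 with DESeq2, 4 without a filter, 1 with at least 10 counts in every library, 2 with all 48 libraries, and 2 with the mouse as a block (0 to 2 with 1 mouse left out, 2 without mouse 198). The 0 calls for TE by age became 2 with DESeq2 (0 to 1, 1 without mouse 195). The 8 calls for TE between compartments became 14 with GC content and length trends removed (6 to 11). The block took no call of a member away.

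Directions turned as follows, and the cause was not tested. With GC content and length trends removed, Shank1 was at -0.0338 and Shank3 at -0.0091 for 18m against 5m in input_TH, Homer1 at 0.0533 (3w) and 0.0835 (5m) for input_SYN against input_TH, and Dlg2 at 0.23 for SC_TH against input_TH at 5m. Scaled by library size, input_SYN against input_TH at 3w, 5m and 18m gave -0.15, -0.42 and -0.0297 for Dlg1 and -0.51, -0.64 and -0.48 for Dlg3, and at 18m -0.0412 for Dlg4 and -0.40 for Homer3. In SC this scaling gave -0.0356 (3w) and -0.0204 (5m) for Dlg2, -0.11 (5m) for Homer3 and -0.33 (18m) for Dlg1. With at least 10 counts in every library, Dlg3 was at -0.23, -0.30 and -0.20 and Dlg1 at -0.0747 (5m) in input. Of the other comparisons of a member with an alternative, 4357 kept their side of the threshold (189 of them with a change of sign in a value not called), 91 gained a call and 89 lost one. Depth limits Homer3 most, with 6.29 to 13.2 CPM over the input_SYN libraries.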
